A study of Mus musculus with 9 samples.

Results

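The genes described here are 8 genes of vascular growth factor signalling: the ligand gene Vegfa, the VEGF receptor genes Kdr, Flt1 and Flt4, the co-receptor genes Nrp1 and Nrp2, and the Tie receptor genes Tek and Tie1. They were chosen by name, and all 8 were found among the 21887 protein-coding genes of an mm10 annotation. Chromatin immunoprecipitation with sequencing (ChIP-seq) had been used to map the histone deacetylases Hdac1 and Hdac2 in mouse haemogenic endothelium, the endothelial cells from which blood cells arise. The cells were derived in culture from C57BL/6 embryonic stem (ES) cells of 3 lines, labelled Bry (passage 16 to 19), Hd1_loxlox and Hd2lox (both passage 25 to 30), and none was treated. The labels give no genotype beyond these line names and no age or clone. Each line gave 1 library with an Hdac1 antibody, 1 with an Hdac2 antibody and 1 input library, and the inputs were not analysed here. The labels do not say whether the lines were cultured or processed separately, so the spread between lists may be technical in part. The data were 6 lists of peak positions, with 7671, 7490 and 7519 peaks for Hdac1 in Bry, Hd1_loxlox and Hd2lox and 9279, 5161 and 9082 for Hdac2. A peak is a stretch where precipitated fragments piled up. The lists carry no height or read count, so depth is unknown, a missing peak may reflect too few reads, and peaks do not measure expression. The cell type label could therefore not be checked against marker levels.

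VEGF-A is the main growth factor of blood vessels. It signals through the tyrosine kinase receptor Kdr (VEGFR2, also Flk1), which also marks the mesodermal progenitors of endothelium and blood, while Flt1 (VEGFR1) binds VEGF-A tightly and acts largely as a decoy and Flt4 (VEGFR3) responds to VEGF-C in lymphatic and growing vessels. Neuropilins are co-receptors for VEGF and for class 3 semaphorins. Tek (Tie2) is the receptor of the angiopoietins, and Tie1 is its partner with no ligand of its own firmly established. Hdac1 and Hdac2 remove acetyl groups from histones within co-repressor complexes, and are also found at active promoters.

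The members divided into genes with peaks over their start and genes with none, and the start sequences of 5 of them are shown because they differ in CG dinucleotides along the same division. Each is the 300-base RefSeq window (GRCm38.p6, the assembly of mm10) from 250 bases before the annotated start, read in the direction of transcription, with CG dinucleotides in capitals. The windows are chr17:46032328-46032627 (minus strand) for Vegfa, chr5:75978406-75978705 (minus) for Kdr, chr5:147725962-147726261 (minus) for Flt1, chr4:94739039-94739338 (plus) for Tek and chr4:118489800-118490099 (minus) for Tie1. The first 3 were under peaks of 3 or 4 lists, and those of Tek and Tie1 were under none.
Vegfa: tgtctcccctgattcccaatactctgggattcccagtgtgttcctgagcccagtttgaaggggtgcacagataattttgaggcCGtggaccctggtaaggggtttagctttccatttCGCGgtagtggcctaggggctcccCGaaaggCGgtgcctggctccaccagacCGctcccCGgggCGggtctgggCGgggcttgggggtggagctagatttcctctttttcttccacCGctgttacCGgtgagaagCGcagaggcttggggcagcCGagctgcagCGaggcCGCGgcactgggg
Kdr: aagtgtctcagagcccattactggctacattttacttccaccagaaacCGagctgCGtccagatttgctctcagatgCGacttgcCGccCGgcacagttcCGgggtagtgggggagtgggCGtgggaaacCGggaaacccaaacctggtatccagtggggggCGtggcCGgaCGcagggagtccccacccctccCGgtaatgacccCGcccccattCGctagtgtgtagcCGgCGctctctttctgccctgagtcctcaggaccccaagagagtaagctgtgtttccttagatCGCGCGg
Flt1: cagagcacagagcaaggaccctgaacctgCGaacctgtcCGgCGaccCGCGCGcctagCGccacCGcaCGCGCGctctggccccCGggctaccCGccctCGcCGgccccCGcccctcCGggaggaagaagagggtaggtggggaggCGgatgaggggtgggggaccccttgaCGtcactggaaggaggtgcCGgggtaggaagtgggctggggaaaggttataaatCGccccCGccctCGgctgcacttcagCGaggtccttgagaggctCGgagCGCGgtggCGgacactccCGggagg
Tek: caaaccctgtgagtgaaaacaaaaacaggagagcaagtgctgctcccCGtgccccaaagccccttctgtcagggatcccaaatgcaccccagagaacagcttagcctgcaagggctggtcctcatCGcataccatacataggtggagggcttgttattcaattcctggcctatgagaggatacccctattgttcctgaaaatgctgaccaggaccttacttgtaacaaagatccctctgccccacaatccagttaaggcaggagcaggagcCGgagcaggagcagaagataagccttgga
Tie1: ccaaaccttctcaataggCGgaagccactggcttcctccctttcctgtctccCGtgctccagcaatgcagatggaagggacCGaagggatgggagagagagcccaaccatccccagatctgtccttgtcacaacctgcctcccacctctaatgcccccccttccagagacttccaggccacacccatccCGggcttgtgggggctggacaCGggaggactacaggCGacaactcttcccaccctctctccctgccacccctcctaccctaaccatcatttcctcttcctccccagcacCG

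The first question was which of these genes carried a peak and where. Of the 8 genes, 6 had a peak within 1000 bp of an outer end of the gene in at least 1 list, and Tek and Tie1 had none in any list. Among all protein-coding genes, 47.8% had such a peak in at least 1 list and 52.2% in none. For Hdac1, end peaks were present at 5 members in Bry (31.9% of all protein-coding genes in that list), 6 in Hd1_loxlox (31.7% of all genes) and 3 in Hd2lox (24.3%). For Hdac2 the numbers were 6 in Bry (34.4% of all genes), 0 in Hd1_loxlox (2.71%) and 1 in Hd2lox (13.5%). The members' shares were thus above those of all genes in the Bry and Hd1_loxlox Hdac1 lists and the Bry Hdac2 list. In Hd2lox Hdac1, 3 of 8 is near the background for so few genes. There the count was 2 when only peaks at or above the median width were kept. The share of all genes was not counted for those wider peaks. In the other Hdac2 lists the members' shares were close to those of all genes or lower. With 8 genes, chosen with earlier results of these data known, these counts are a description and were not tested.

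**Figure D1:**
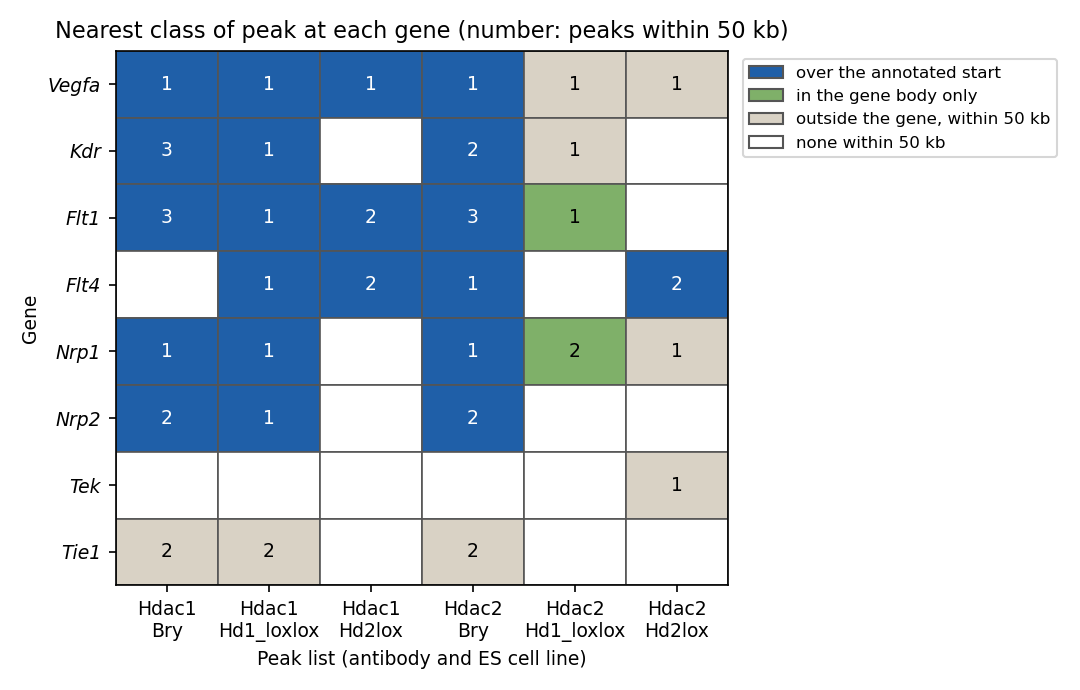
Each cell is 1 gene (rows) in 1 peak list (columns, antibody and ES cell line), coloured by the peak that lies nearest to the gene's start, with the number of peaks within 50 kb of the gene printed. Vegfa and Flt1 had a peak over the start in the 3 Hdac1 lists and the Bry Hdac2 list, and Tek and Tie1 had none over the start in any list.

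Every one of the 21 end peaks at the members covered the annotated transcription start, and none lay at the far end of a gene. Among all protein-coding genes with an end peak and a start in the RefSeq promoter table, a peak covered the start at 90.5%, 91.0% and 87.3% of the genes for Hdac1 in Bry, Hd1_loxlox and Hd2lox, and at 89.4%, 34.6% and 73.1% for Hdac2. Start peaks of the members were 875 to 5467 bp wide, and 15 of the 21 were above the 75th percentile of width in their own list. That percentile is over all peaks of a list, wherever they lie. Start peaks of other genes were not compared for width, so wide start peaks cannot be called particular to the members. Peaks over starts were thus usual among occupied genes in the lists other than Hdac2 of Hd1_loxlox, which held no end peak at a member.

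At Vegfa, the ligand gene (chr17:46016993-46032377, minus strand, 15385 bp), the Hdac1 peak over the start was 3014 bp wide in Bry, 2939 bp in the Hd1_loxlox line and 2395 bp in Hd2lox. The Hdac2 peak was 2993 bp wide in Bry, and the Hd1_loxlox and Hd2lox Hdac2 lists had none there. These 4 peaks were all above the 93rd percentile of width in their lists. They shared a stretch of 2219 bp, chr17:46030232-46032450, which ran from 73 bp before the start to 2145 bp into the gene, so that most of the shared stretch lay inside the transcribed region. RefSeq lists another start inside Vegfa, at position 46025163, and no list had a peak over its promoter window. The Hd1_loxlox Hdac2 list had a 566 bp peak 8904 bp past the stop of the gene, and the Hd2lox Hdac2 list had a 760 bp peak 31361 bp past it.

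Among the receptor genes, Flt1 had the most peaks. Flt1 (chr5:147561604-147726438, minus strand, 164835 bp) had Hdac1 peaks over its start of 1904 bp (Bry), 2187 bp (Hd1_loxlox) and 1468 bp (Hd2lox), and an Hdac2 peak of 3005 bp in Bry. No start peak was listed for Hdac2 in Hd1_loxlox or Hd2lox. The shared stretch of these 4 peaks was 1291 bp, from 398 bp before to 892 bp after the start. Flt1 also held peaks well inside the gene, more than any other member, and is the longest of the members. In Bry both antibodies had a peak centred about 4 kb into the gene (Hdac1 4.0 kb, Hdac2 3.8 kb) and another at 68.0 kb. Hd2lox Hdac1 had a 3188 bp peak centred at 52.6 kb, at the 99th percentile of width of its list, that overlapped no peak of another list. Hd1_loxlox Hdac2 had its only Flt1 peak at 136.0 kb, 1121 bp wide.

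Kdr (chr5:75932827-75979072, minus strand, 46246 bp) had a start peak of 1446 bp in Bry and 2708 bp in Hd1_loxlox for Hdac1, and of 1701 bp in Bry for Hdac2. Neither Hd2lox list had a peak within 50 kb of Kdr, and Hdac2 in Hd1_loxlox had only a 615 bp peak 7526 bp before the gene. The 3 start peaks shared 1404 bp, chr5:75977697-75979100, from 645 bp before to 758 bp after the start. These peaks also overlapped the annotated lncRNA gene Gm32727 and lay within 1000 bp of its end, so they cannot be assigned to 1 of the genes. Bry Hdac1 had a further peak inside Kdr, 2385 bp wide and centred 16.1 kb from the start, at the 93.4th percentile of width. No other list had a peak there.

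Flt4 (chr11:49609679-49652739, plus strand, 43061 bp) had a different pattern of lists. Hdac1 peaks over the start were 1377 bp wide in Hd1_loxlox and 1308 bp in Hd2lox, with none in Bry. Hdac2 peaks were 1832 bp wide in Bry and 875 bp in Hd2lox, with none in Hd1_loxlox. Flt4 was the only member with an end peak in the Hd2lox Hdac2 list, and the only one of the 6 occupied members without an end peak in the Bry Hdac1 list. Its Hdac1 peaks were below the median width of their lists, at the 41.5th and 37.4th percentiles. The 4 peaks shared 790 bp, from 309 bp before to 480 bp after the start.

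The neuropilin genes matched Kdr in their lists and included the widest start peaks among the members, those of Nrp1 and the Hd1_loxlox Hdac1 peak of Nrp2. Nrp1 (chr8:128358591-128505476, plus strand) had Hdac1 peaks of 3614 bp in Bry and 3249 bp in Hd1_loxlox, and an Hdac2 peak of 3694 bp in Bry, all above the 97th percentile of width. End peaks at Nrp1 were missing from the Hd2lox lists and from Hdac2 of Hd1_loxlox. The shared stretch of 3249 bp reached from 1960 bp before to 1288 bp after the start. It extended further upstream than at the other members, over the neighbouring end of the lncRNA gene A930035F09Rik and over Mir1903. Hd1_loxlox Hdac2 had 2 narrow peaks inside Nrp1, of 566 and 594 bp, at the 2.11th and 7.59th percentiles of width, which no other list shared.

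Nrp2 (chr1:62703317-62818692, plus strand) had a pair of neighbouring sites in Bry, 1 over the start and 1 a few kb into the gene. The Bry Hdac1 peaks were 1775 bp over the start and 1772 bp centred 3.8 kb inside, and the Bry Hdac2 peaks were 1377 bp and 1379 bp, the inner one centred at 3.3 kb. In Hd1_loxlox a single Hdac1 peak of 5467 bp, at the 99.9th percentile of width, spanned both sites. The other 3 lists had no peak within 50 kb of Nrp2.

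**Figure D2:**
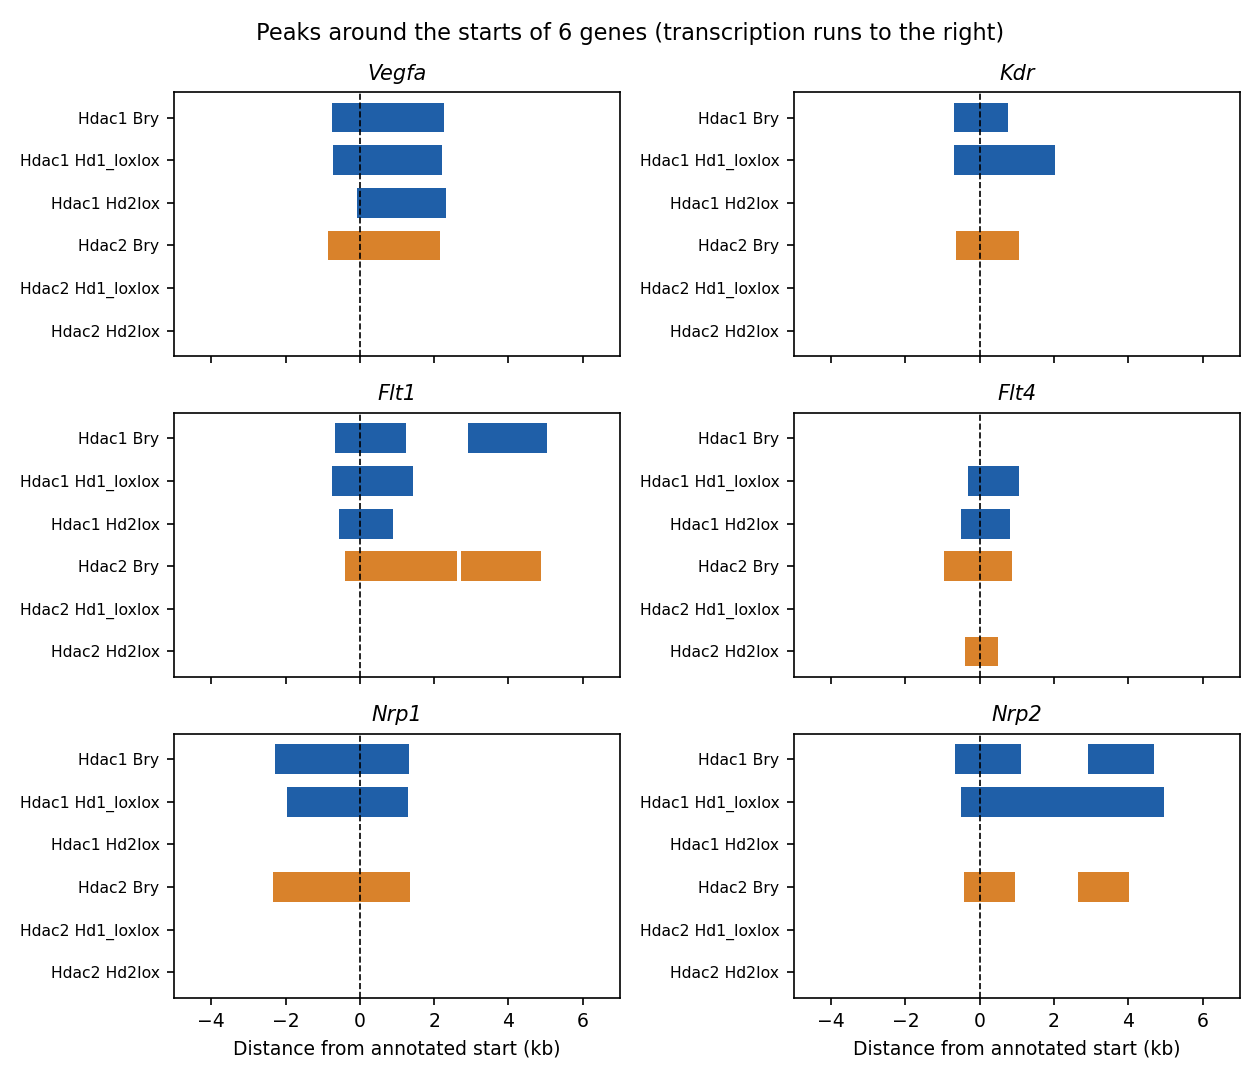
Bars are peaks of each list (rows) around the annotated start (dashed line) of the 6 genes with start peaks, in kb with transcription to the right (blue Hdac1, orange Hdac2). Peaks at Nrp1 reach about 2 kb upstream, those at Vegfa about 2 kb downstream, and the single Hd1_loxlox Hdac1 peak at Nrp2 spans the 2 sites seen in Bry.

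The Tie receptor genes carried no peak inside the gene or at its ends in any list, as was the case for 43.0% of all protein-coding genes. Tek (chr4:94739086-94874976, plus strand, 135891 bp), although far longer than the median protein-coding gene (17169 bp), had a single peak within 50 kb, an Hd2lox Hdac2 peak of 837 bp that lay 13130 bp past its stop, inside the neighbouring gene Eqtn. Around Tie1 (chr4:118471191-118489849, minus strand, 18659 bp), 2 regions were present in Hdac1 of Bry and Hd1_loxlox and in Hdac2 of Bry. One lay at an end of Cdc20, an activator of the anaphase-promoting complex, with peaks of 2405 and 925 bp for Hdac1 and 1581 bp for Hdac2. The other lay in Elovl1, a fatty acid elongase gene, with peaks of 1405 and 1167 bp for Hdac1 and 1290 bp for Hdac2.

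With the wider window of 50 kb the counts stood differently to those of all genes. A peak lay within 50 kb of 6, 7 and 3 members for Hdac1 in Bry, Hd1_loxlox and Hd2lox, where 56.7%, 55.8% and 53.6% of all genes had one. For Hdac2 the numbers were 7, 4 and 4, against 61.2%, 31.7% and 49.6% of all genes. In Hd2lox the 3 members with an Hdac1 peak within 50 kb were the same that had an end peak, a share below that of all genes in this window. For Hdac2 the wider window took in 4 members in Hd1_loxlox and 4 in Hd2lox, against 0 and 1 with end peaks. A peak overlapping the gene or lying at its ends was found at 5, 6 and 3 members for Hdac1 (35.4%, 35.2% and 29.3% of all genes) and at 6, 2 and 1 for Hdac2 (38.9%, 11.0% and 21.8%). The gene body alone gave the same member counts, with 34.4%, 34.4% and 28.5% of all genes for Hdac1 and 37.9%, 10.5% and 21.0% for Hdac2. All members but Vegfa and Tie1 are 43061 bp or longer, against a median of 17169 bp for protein-coding genes. The shares of all genes were not matched for length. In all, 47 peaks lay within 50 kb of a member: 21 over starts, 11 elsewhere in the genes and 15 outside them. They merged into 24 regions, of which 14 (58.3%) were in 1 list only, close to the 62.4% of the 24761 regions of the 6 lists together. Of those 14 regions, 5 came from the Hd1_loxlox Hdac2 list and 4 from the Hd2lox Hdac2 list. The regions of the whole series in 1 list only were not split by list, so this split cannot be called particular to the members. Outside the starts, peaks of the Hd1_loxlox and Hd2lox Hdac2 lists near the members were 566 to 1121 bp and 760 to 848 bp wide.

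The antibodies were then compared over the length covered by peaks within 50 kb of each gene, with the 3 lines as replicates. The whole lists covered 11.61, 12.07 and 11.64 Mb for Hdac1 in Bry, Hd1_loxlox and Hd2lox, and 13.34, 5.6 and 8.01 Mb for Hdac2, so the Bry Hdac2 list was the longest throughout the genome. Vegfa had 3014, 2939 and 2395 bp for Hdac1 in Bry, Hd1_loxlox and Hd2lox, and 2993, 566 and 760 bp for Hdac2. The Hdac2 value of Bry lay between the Hdac1 values, so the groups overlapped. The means were 2783 ± 337.8 bp for Hdac1 and 1440 ± 1349 bp for Hdac2 (SD, n = 3 lines each; exact two-sided permutation p = 0.3, adjusted p = 1). Nrp2 had a difference of means of 2086 bp, which was 395.5 bp without Hd1_loxlox, with 3547, 5467 and 0 bp for Hdac1 and 2756, 0 and 0 bp for Hdac2 (exact permutation p = 0.4, adjusted p = 1). At Kdr the values were 5218, 2708 and 0 bp for Hdac1 and 2662, 615 and 0 bp for Hdac2, a difference of 1550 bp (exact permutation p = 0.5, adjusted p = 1). At Flt1 they were 4908, 2187 and 4656 bp for Hdac1 and 6270, 1121 and 0 bp for Hdac2, a difference of 1453 bp (exact permutation p = 0.6, adjusted p = 1). In each of these 4 genes Bry had the most Hdac2 coverage of the lines, as it did over the whole lists. The differences were 1010 bp at Tie1 (p = 0.7), 416.3 bp at Nrp1, 149.7 bp at Flt4 and -279 bp at Tek (exact permutation p = 1 for the last 3), Hdac1 minus Hdac2, with an adjusted p of 1 for each. The values of the antibodies overlapped at all 8 genes, and this test did not use the pairing by line. With 3 lists against 3 the smallest possible p is 0.1, so the design cannot reach 0.05, and these values do not show that the antibodies gave alike results.

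**Figure D3:**
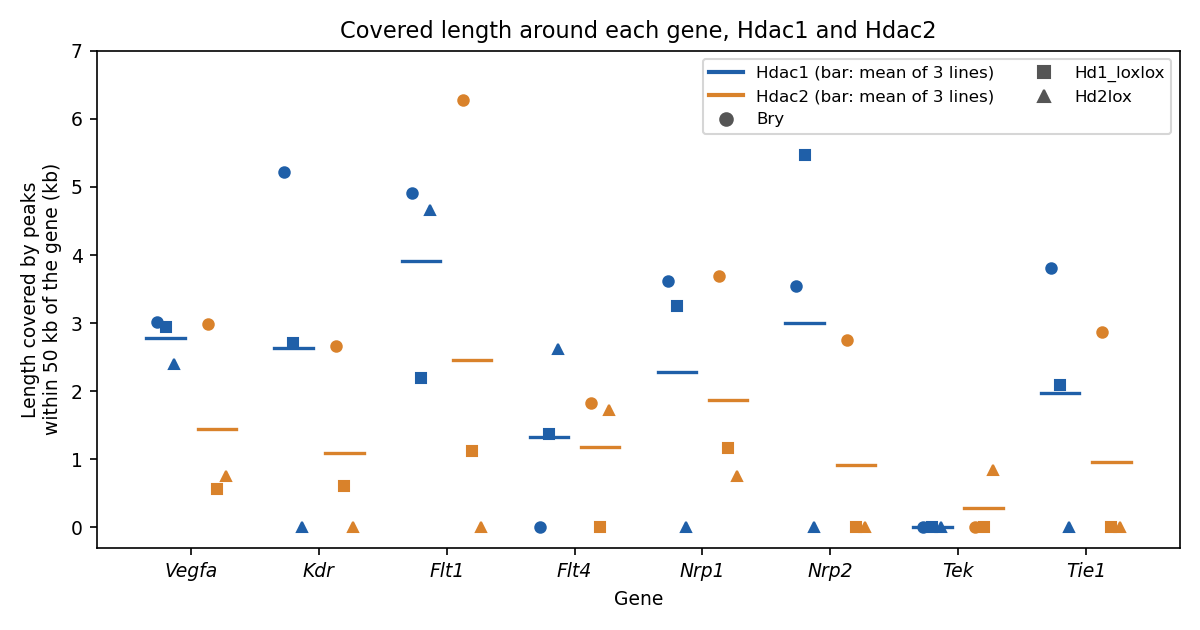
Points are the length covered by peaks (kb) within 50 kb of each gene in 1 line (marker shape) for Hdac1 (blue, left) and Hdac2 (orange, right), and bars are means of 3 lines. The antibodies overlapped at every gene, and the Bry Hdac2 value is the highest of the Hdac2 values at all genes but Tek, as the whole Bry Hdac2 list also covers the most (13.34 Mb, against 5.6 and 8.01 Mb).

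Genes were next matched by their lists. Vegfa and Flt1 shared 1 pattern, end peaks in the 3 Hdac1 lists and Bry Hdac2, carried by 1364 of the 21887 protein-coding genes. Kdr, Nrp1 and Nrp2 shared another (Hdac1 of Bry and Hd1_loxlox, Hdac2 of Bry), carried by 1849 of the 21887. The measure was an identical presence over the 6 lists. The pattern of Vegfa and Flt1 was also that of 12 of 53 other genes of the pathway, among them the ligand gene Vegfb, the phospholipase gene Plcg1 and the kinase genes Pik3ca and Map2k1. The pattern of Kdr and the neuropilins was that of Pik3r2, a regulatory subunit of PI3 kinase, Nos3, the endothelial nitric oxide synthase, and Arnt, the partner of the hypoxia-inducible factors. Flt4's pattern was found in 208 of the 21887 genes and in none of the 53, which is near the background for so rare a pattern. The 3 of 53 with the pattern of Kdr are also not above the share of all genes. The 12 of 53 with the pattern of Vegfa are above it. None of these shares was tested. End peaks in each of the 3 Hdac1 lists were present at 2 of the 8 members, against 14.6% of all genes. Both Bry lists had one at 5 members (26.3% of all genes), the same 5 that also had one in Hd1_loxlox Hdac1 (22.1% of all genes had these 3 lists), and no member had one in 5 or 6 lists (7.15% of all genes). One in at least 2 Hdac1 lists was present at 6 members (30.2% of all genes), and one in at least 2 Hdac2 lists only at Flt4 (10.6% of all genes).

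The 53 other genes of VEGF, neuropilin and Tie signalling had end peaks more often than all genes in 5 of the 6 lists. For Hdac1, the number with an end peak was 29 (Bry), 31 (Hd1_loxlox) and 30 (Hd2lox), and for Hdac2 the numbers were 28, 1 and 11. These are 54.7%, 58.5%, 56.6%, 52.8%, 1.89% and 20.8% of the genes, beside the shares of all genes given above. Signal transducers had Hdac1 in at least 2 lines at 15 of 19 (30.2% of all genes) and Hdac2 at 4 (10.6% of all genes). Receptor-bound regulators had Hdac1 at 7 of 11 and Hdac2 at 2, and hypoxia regulators at 4 and 1 of 6. Class 3 semaphorins had Hdac1 at 1 of 7 and Hdac2 at 2, with 4 of the 7 in no list (52.2% of all genes). Ligand-processing genes had Hdac1 at 1 of 3 and Hdac2 at 0. The counts of these 2 groups are near the background for so few genes. The genes with an end peak in 5 lists were Sema3f, a semaphorin that binds neuropilins, the receptor phosphatase gene Ptprj, the adaptor gene Shb, the kinase genes Fyn, Akt1, Mapk14 and Prkca, and Egln1, the oxygen sensor that marks hypoxia-inducible factors for destruction. None had one in all 6. An end peak in 5 or 6 lists was thus present at 8 of the 53 (15.1%), against 7.15% of all genes. Of the 7 VEGF and angiopoietin ligands, 2 had Hdac1 in at least 2 lines (30.2% of all genes) and 0 had Hdac2 (10.6% of all genes), which is near the background for so few genes. Vegfb, which binds Flt1, and Vegfc, the ligand of Flt4, each had end peaks in 3 Hdac1 lists and 1 Hdac2 list (Bry for Vegfb, Hd2lox for Vegfc). Angpt1, the activating ligand of Tek, had one only in Hd2lox Hdac1, and Angpt2, its context-dependent antagonist, only in Hd1_loxlox Hdac2. Vegfd, Pgf and Angpt4 had none. Ptprb, the endothelial phosphatase that acts on Tek, had no end peak either, although 2 lists had a peak inside the gene. The 53 genes were listed from textbook roles with earlier results of these data known, and their counts were not tested.

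**Figure D4:**
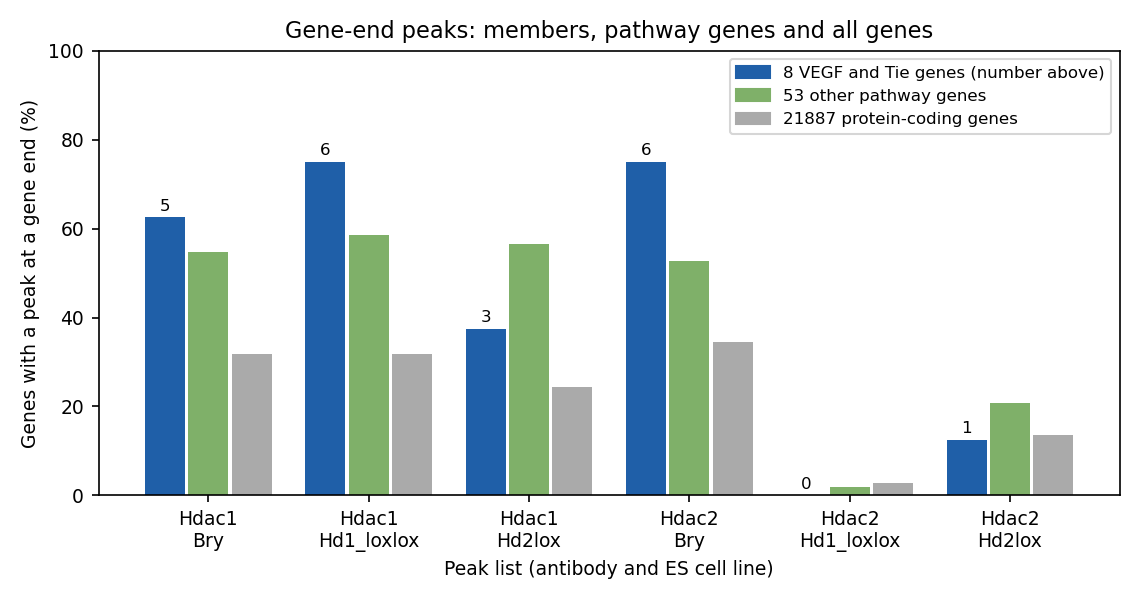
Bars are the share (%) of genes with a peak within 1000 bp of a gene end in each list, for the 8 members (blue, number of genes above the bar), the 53 other pathway genes (green) and all 21887 protein-coding genes (grey). The members stand above all genes in the 3 Hdac1 lists and in Bry Hdac2, with 5, 6, 3 and 6 genes, and not in the other lists. The 3 genes of Hd2lox Hdac1 are near the background for so few genes.

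The promoter windows of the members differed in CG content along the division by peaks. The windows printed above held 16 CG dinucleotides for Vegfa, 19 for Kdr and 29 for Flt1, against 3 for Tek and 7 for Tie1, and the other occupied members had 26 (Flt4), 14 (Nrp1) and 37 (Nrp2). The median over 21263 promoter windows of 17492 protein-coding genes was 13. All 6 occupied members were thus above it and the Tie genes below it. The windows were divided into 5 classes by CG number, each with 3646 to 5085 windows. Among windows with 0 to 3 CG dinucleotides, as in Tek, 0.393% were overlapped by an Hdac1 peak in Bry and 0.433% by an Hdac2 peak. With 4 to 8, as in Tie1, these shares were 5.1% and 6.31%, and with 9 to 18, as in Vegfa and Nrp1, 30.6% and 33.3%. With 19 to 27, as in Kdr and Flt4, they were 53.1% and 55.7%, and with 28 or more, as in Flt1 and Nrp2, 69.7% and 72.9%. Hdac1 of Hd1_loxlox gave shares close to these, 0.315% in the lowest class and 70.4% in the highest. In Hd2lox the highest class reached 70.4% for Hdac1 and 36.4% for Hdac2, while the class of Vegfa and Nrp1 was at 14.9% and 5.74%. In the Hd1_loxlox Hdac2 list the share was 2.12% even in the highest class. The share was thus higher with more CG dinucleotides in each list, as a description across genes, which are not independent replicates. The members did not follow CG number in every list, since Nrp2, with the most, had no peak in either Hd2lox list, and Vegfa, with 16, had one for Hdac1. These classes were set after the peaks had been seen.

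**Figure D5:**
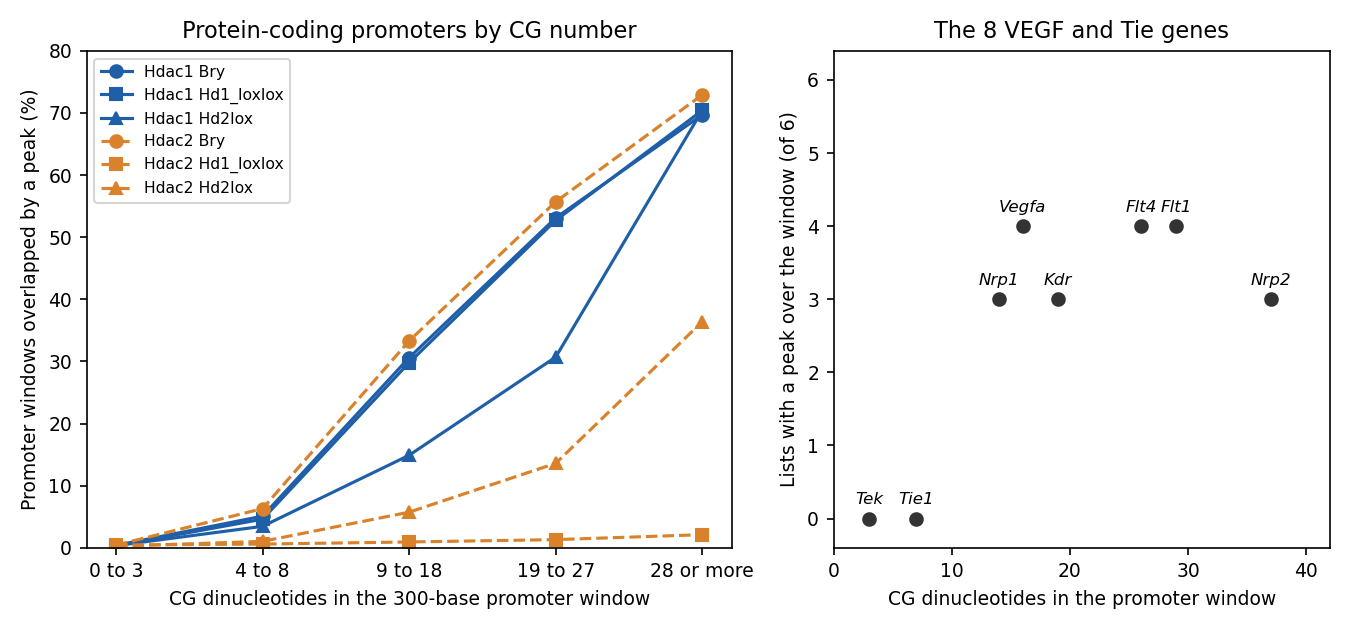
Left, the share (%) of protein-coding promoter windows of 300 bases overlapped by a peak in each list, by the number of CG dinucleotides in the window (blue solid Hdac1, orange dashed Hdac2, marker shape the line). Right, the CG number of each member against the number of lists with a peak over its window, with Tek (3) and Tie1 (7) at 0 lists and the other members, from 14 upwards, at 3 or 4.

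Short motifs were searched in the same windows on both strands. GGGCGG, the GC box bound by Sp factors, was present in the first-listed windows of all 6 occupied members, with 2 copies in Vegfa, 2 in Kdr, 3 in Flt1, 3 in Flt4, 1 in Nrp1 and 5 in Nrp2, and in neither Tek nor Tie1. It was present in 46.2% of all windows, and since it contains a CG its presence is tied to CG number. CGGAAG, a core of ETS factor sites, was found only in Tie1 (21.1% of all windows). TATAAA, the TATA box, was found only in Flt1, with its first base 31 bp before the start (12.6% of all windows). CANNTG, the E-box, was found in the first-listed windows of Kdr, Flt4, Nrp2, Tek and Tie1, and in that of the internal Vegfa start (14676 of the 21263 windows). ACGTG, a form of the core of the hypoxia response element, was in none of the first-listed windows, but in that of the internal Vegfa start (20.9% of all windows). Other forms of this core, such as GCGTG, which the printed Kdr window holds, were not searched. TGTGGT, a RUNX core, was in none of the members' windows (3183 of the 21263 windows). A match is a run of letters and no measured site, and a window without one says nothing of the factor.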

How the data were processed

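The values deposited by the authors are peak positions (chromosome, start and end), 1 list per library, with no score or height. Bcl2fastq, Bowtie2 2.2.9, SAMtools 1.3.1, MACS2 2.1.1.20160309 and the build mm10 are named in the submitters' processing notes. The sources used here state neither the calling threshold nor the control, and an input shared by both antibodies of a line would give its lists common errors. Starts were taken as BED positions and raised by 1 bp. Genes and promoter windows came from RefSeq tables of GRCm38.p6. All 53 pathway symbols and all 8 members matched. Overlap meant 1 bp or more. Because the annotation table has no strand, gene ends covered both outer ends, and starts came from the promoter table, which lists 17492 of the protein-coding genes.

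The lines served as replicates of each antibody. Covered length was compared by an exact two-sided permutation test of means, with Benjamini-Hochberg adjustment over 8 genes, and the pairing by line, which comes from the labels, by a sign-flip test. The lists of members and pathway genes were chosen with earlier results of these data known. All members were described. Of the pathway list, the VEGF and angiopoietin ligands, genes with an end peak in 5 or 6 lists, and genes sharing a member's pattern were to be named, with other examples chosen after their values were seen. The overlap code was tested on simulated peaks. Python 3.11.15, pandas 2.3.3 and NumPy 2.4.6 were used. Some results on genes beside the members are not reported here.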

Additional observations from a re-analysis of the deposited data

Results flagged for a closer look

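Flt4 was the only member whose end peaks differed between the antibodies in opposite ways in 2 lines. The presence in Hdac1 minus that in Hdac2 was -1 in Bry, with a peak for Hdac2 only, and the opposite in Hd1_loxlox, with a peak for Hdac1 only, while in Hd2lox both antibodies had one. The Hd1_loxlox Hdac2 list had an end peak at 2.71% of all genes and at no member. The share of all genes with such opposite differences was not counted. Each line had 1 library per antibody, and the difference was not tested.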

How the results depend on the processing

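The counts of members with an end peak were within 1.5 times of the reported ones under windows of 500 and 2000 bp, annotated starts only, a requirement of 0.5 of the peak inside the window, and the wider peaks of each list. Keeping only peaks at or above the median width of their list left 1 member with a peak in the gene or at its ends and 1 within 50 kb for Hd1_loxlox Hdac2, 2 within 50 kb for Hd2lox Hdac2, and 20, 19, 0 and 6 pathway genes for Hdac1 of Hd1_loxlox and Hd2lox and Hdac2 of Hd1_loxlox and Hd2lox. A window of 20 kb gave 2 members for Hd2lox Hdac2. For Hd1_loxlox Hdac2 the 1 pathway gene became 0 at 500 bp and 2 at 2000 bp. The shares of all genes were not counted under these settings, so the changes cannot be called particular to these genes.

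Covered length, Hdac1 minus Hdac2, changed direction under some settings at Flt1, Flt4, Nrp1 and Tie1. At Flt4 it was -290 bp within 20 kb, -4.25 bp per Mb of list, -1185 bp for wider peaks and -442.8 bp without the Hd1_loxlox Hdac2 list, and there was no difference (0) in number of peaks. At Nrp1 it was -26 bp within 100 kb and -0.667 in number of peaks, at Tie1 0 within 20 kb and -58 bp within 100 kb, and at Vegfa 0 in number of peaks. Leaving out 1 line at a time gave 828 to 2004 bp at Vegfa, 1046 to 2324 bp at Kdr, -148 to 2861 bp at Flt1, -464 to 1140 bp at Flt4, -420 to 1004 bp at Nrp1, 395.5 to 3129 bp at Nrp2, -418.5 to 0 bp at Tek and 469.5 to 1516 bp at Tie1. At Nrp2 the difference without Hd1_loxlox, which held the 5467 bp peak, was 395.5 bp. With the pairing by line as a block, the difference of 1343 bp at Vegfa had the same sign in all 3 lines (sign-flip permutation p = 0.25, the smallest possible). In Bry the values were nearly equal, 3014 bp for Hdac1 and 2993 bp for Hdac2. The whole Hdac2 lists of Hd1_loxlox and Hd2lox covered 5.6 and 8.01 Mb, against 12.07 and 11.64 Mb for Hdac1. The block changed no call. The causes were not tested. Unknown depth limits every absence.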
